A study of Homo sapiens with 8 samples.

Results

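*BMF* and 9 relatives of the *BCL2* family were followed through the enhancer maps of 4 human medulloblastoma (MB) cell lines. The genes were *BMF*, *BCL2L11*, *BBC3* and *PMAIP1* (BH3-only genes), *BCL2*, *BCL2L1*, *BCL2L2* and *MCL1* (anti-apoptotic genes), and *BAX* and *BAK1* (effector genes). A region was counted for a gene when it overlapped the gene body or came within 50 kb of its start site in GRCh38. By this rule 89 of the 88550 stitched regions of the 4 lines belonged to the 10 genes, of 27445 genes placed in the same way, with 21 for MB002, 23 for D425, 26 for HD-MB03 and 19 for UW228. The genes were chosen for their family, with earlier results of these data known. *BMF* is also a gene the study had picked as associated with a super-enhancer (SE), partly from these lines.

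The *BCL2* family decides whether a cell opens the outer membrane of its mitochondria and dies by apoptosis. *BAX* and *BAK1* form the pores. *BCL2*, *BCL2L1* (BCL-XL), *BCL2L2* (BCL-W) and *MCL1* hold them in check, and the BH3-only proteins *BMF*, *BCL2L11* (BIM), *BBC3* (PUMA) and *PMAIP1* (NOXA) bind and occupy these guardians when a cell is stressed. Drugs that mimic a BH3 domain act at the same step, which is why the balance of the family is of interest in tumors of the developing cerebellum such as MB.

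MB002, D425 and HD-MB03 (HDMB03 in the labels) are labelled as group 3 MB (G3-MB) and UW228 as the sonic hedgehog (SHH) subtype. No genetic change or treatment is given for any of them. MB002 and HD-MB03 were grown in a serum-free stem cell medium with growth factors, and D425 and UW228 in DMEM with serum. Each line was represented by 1 H3K27Ac ChIP-seq library and 1 input library, where H3K27Ac is a histone mark of active enhancers and promoters and the input is the chromatin before precipitation. There were therefore no replicates, a difference between lines has no replicate check, and the depth of the libraries is unknown. Subtype also cannot be told apart from what is particular to UW228 as the single line of its kind or from how its map was made. Per the file headers, that map came later and from another run folder than the other 3. All 4 headers name the same stitching distance, slightly below the one in the methods, and whether the other settings matched is not given in the sources used here. The lengths, peak numbers and summed signals of UW228 regions can be affected by this.

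The authors stitched neighbouring peaks into regions with ROSE, ranked the regions of a line by signal, and called those above the bend of the ranked curve SEs and the rest typical enhancers (TEs). The methods exclude promoters, although some deposited regions overlap start sites. A start site without a region may thus still carry H3K27Ac. MB002 had 26072 regions with 363 SEs, D425 26317 with 431, HD-MB03 15286 with 302 and UW228 20875 with 753. Signal here means the deposited ChIP value of a region (read density per base pair, scaled to the mapped reads of the library, times the length of the region) minus the input value, floored at 0. The subtype labels were set against marker genes. *OTX2*, a homeobox factor of G3-MB, had a SE in MB002, D425 and HD-MB03 and no region in UW228, and 3, 3 and 2 of the 5 G3-MB markers had a SE in these 3 lines against 0 in UW228. The *MYC* region of UW228 narrowly missed the call, at rank 763 against 753 for the weakest SE. The *MYC* signal of UW228, 24370, was above the 3638 of HD-MB03 and below the 340819 of MB002 and 211226 of D425. Of the 7 SHH-MB markers none had a SE in UW228, whereas 2, *GLI1* and *PTCH1*, had one in HD-MB03. *ATOH1* had no region in any line, and *SFRP1* had one in UW228 alone (a TE of rank 3545). *BOC*, a receptor partner in SHH signalling, was highest in UW228, with a signal of 18806 against 11057 for MB002, 1594 for D425 and 7816 for HD-MB03. *GLI1* was lowest in UW228, at 1432.5 against 13119, 36043 and 38490 in the same order. *PTCH1* was lowest there as well, at 879 against 10644, 4188 and 45433. *GLI2* had 2634 in UW228, 24708 in MB002 and 16885 in HD-MB03, and no region in D425. Regions of any kind were found for 6 of the 7 in UW228 and for 5, 3 and 5 in the G3-MB lines in the same order. The markers thus gave no SE for the label of UW228, and the line is called by its name below.

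*BMF* carried a SE in MB002 and D425 and a TE in HD-MB03 and UW228. *BMF* (Bcl2-modifying factor) is a BH3-only protein known to sit on the cytoskeleton through dynein light chain until it is released. Its gene lies on the minus strand of chromosome 15, at chr15:40087890-40108879. The main region had rank 132 for MB002, 165 for D425, 790 for HD-MB03 and 4845 for UW228. In terms of the whole list of a line, this put *BMF* in the top 0.506% for MB002, 0.627% for D425, 5.17% for HD-MB03 and 23.2% for UW228.

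The summed signal over all *BMF* regions was 55204 for MB002, 42045 for D425, 13896 for HD-MB03 and 5681 for UW228. All 3 G3-MB lines lay above UW228, by 9.72-fold for MB002, 7.40-fold for D425 and 2.45-fold for HD-MB03. The mean log2 difference was 2.49 (log2 of signal + 1, G3-MB minus UW228), with p = 0.25 by the exact permutation test over the 4 splits of 3 lines against 1 (two-sided), which is the smallest p the design allows. As the study had picked *BMF* partly from these lines, the difference is a description only. By fold, HD-MB03 was closer to UW228 than to MB002, which was 3.97-fold higher than HD-MB03. This placing turned when the signal was divided by the total or the median of the line or by the input within 500 kb. With the total, HD-MB03 had 27098 against 55204 for MB002 and 5141 for UW228.

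Part of this difference lay in the length of the regions. The main region was 31.3 kb long with 6 peaks for MB002, 41.3 kb with 12 peaks for D425, 40.3 kb with 8 peaks for HD-MB03 and 22.0 kb with 4 peaks for UW228. Peaks filled 46.9%, 54.1%, 28.3% and 17.4% of it in the same order. Per base pair of region, gaps between peaks included, the signal was 1.67 for MB002, 1.00 for D425, 0.345 for HD-MB03 and 0.258 for UW228. On this scale the order of the lines was kept, but the lead over UW228 was 6.48-fold, 3.89-fold and 1.34-fold. The mean log2 difference per base pair was 1.69, against 2.49 for the summed signal.

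**Figure D1:**
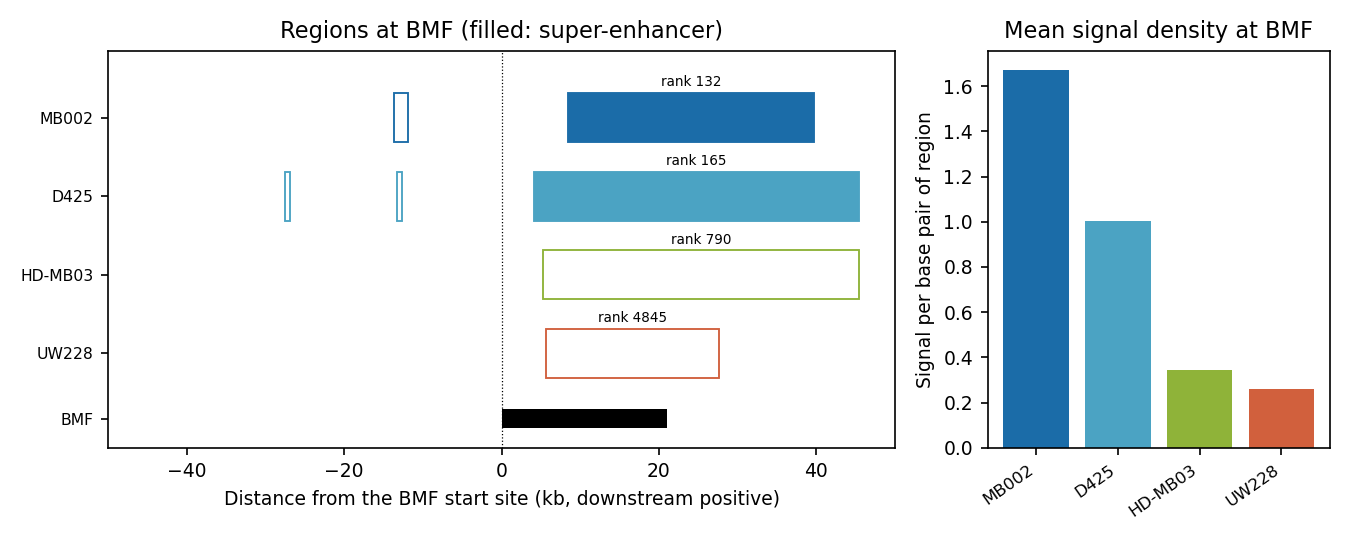
Left, regions at *BMF* in each line by distance from its start site in kb, downstream positive, with the gene body in black, SEs filled and TEs open, the rank of the best region above it, and very short regions drawn at a minimum width. Right, signal per base pair over all *BMF* regions of a line (1 library each). The filled regions belong to MB002 and D425, and the bars fall from 1.67 in MB002 to 0.258 in UW228.

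In none of the lines did the main region hold the *BMF* start site. It began 8.42 kb downstream for MB002, 4.13 kb for D425, 5.21 kb for HD-MB03 and 5.61 kb for UW228, and it ran past the end of the gene by 18.7, 24.4, 24.5 and 6.63 kb, respectively. All 4 lines shared 1 segment of 19.2 kb, at chr15:40081260-40100458, which covers the last part of the gene and the sequence beyond it. The region of UW228 lay wholly inside those of D425 and HD-MB03 and covered 52.5% and 54.7% of the *BMF* region length of these lines. The remaining *BMF* regions were short and upstream. There was 1 in MB002 (rank 8339) and 2 in D425 (ranks 21194 and 21881).

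The input over the main *BMF* region, per base pair and relative to the median region of the line, was 0.896 for MB002, 1.16 for D425, 1.06 for HD-MB03 and 0.709 for UW228. A copy-number gain raises the input, and the measure is given below beside the ranks it may move. In MB002 and D425 the *BMF* SE exceeded the weakest SE of the line by 1.64-fold and 1.59-fold, and the HD-MB03 region reached 0.604 of that level. After division of the signal by the median input within 500 kb the HD-MB03 region had rank 764 and became a SE, as the recomputed cutoff then called 1045 SEs in this line in place of 302. *BMF* had the closest start site to its SE in both lines, 24.1 and 24.8 kb from the middle of the SE. The other genes in reach were *SRP14*, a subunit of the signal recognition particle, and *SRP14-DT*.

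The sequence of the *BMF* segment shared by all lines was searched for 3 short motifs on both strands, those of *OTX2* and *CRX* and of *MYC*, whose genes had a SE in MB002 and D425, and of AP-1. The OTX2/CRX core (GGATTA) occurred 17 times, and 4 of these were followed by CAGG, as in the common Alu repeats. The MYC E-box (CACGTG), the site of *MYC* and its partners, occurred 3 times, and the AP-1 element (TGANTCA) 6 times. The 3 E-boxes and the 3 OTX2/CRX cores nearest to the *BMF* start site that were not followed by CAGG are shown, since they lie under the region of every line. They are given 5′ to 3′ on the strand of *BMF*, GRCh38, with the motif in capitals (TAATCC is the OTX2/CRX core read from the other strand).
E-box at chr15:40094861-40094890, 14.0 kb downstream of the start: agaaaacaccaaCACGTGaagtgttttcta
E-box at chr15:40087581-40087610, 21.3 kb downstream: cttcagttcttcCACGTGtgaaatacgact
E-box at chr15:40083894-40083923, 24.97 kb downstream: aatctctgggggCACGTGtgtttattgtac
OTX2/CRX core at chr15:40096200-40096229, 12.7 kb downstream: gtttgatttatgTAATCCaaccttgtcaga
OTX2/CRX core at chr15:40095043-40095072, 13.8 kb downstream: agctctgagttgTAATCCtgaaggtagtcg
OTX2/CRX core at chr15:40092931-40092960, 15.9 kb downstream: gggccactgaagTAATCCaagtccagcccg

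Over the whole *BMF* SE, the E-box occurred 2.56 times per 10 kb in MB002 and 2.42 times in D425. The median SE of these lines held 1.14 and 1.33 per 10 kb, and 92.3% and 86.8% of the SEs of the line had a lower density than *BMF*. The OTX2/CRX core at *BMF*, 9.60 and 8.72 per 10 kb, was near the SE medians of 7.83 and 8.08. The AP-1 element was below the median in MB002 (2.56 against 3.14) and close to it in D425 (3.15 against 3.07). These are counts of letters, and no binding was measured here.

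The 2 short hairpins that the study designed against *BMF* are shown because they lie in the same segment.
shBMF-1: GCTTTGAATGGAGAAGAgaac
shBMF-2: ccttGCTTTGAATGGAGAAGA
The capitals mark the 17 bases that both targets share. The targets of 21 bases match chr15:40091811-40091831 and chr15:40091815-40091835 on the minus strand, 17.0 kb downstream of the start, in a coding exon of all 7 annotated *BMF* transcripts that hold the site. Both sites lie inside the main *BMF* region of all 4 lines. The hairpins overlap, so they are not independent of each other in target.

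The promoter of *BMF* (250 bases before to 50 after the start, RefSeq, GRCh38.p14) held no match to the 3 motifs and lay under no region in any line. As the methods exclude promoters, this does not show that it lacked H3K27Ac. The promoter is shown as a start site outside the SE, at chr15:40108830-40109129 on the minus strand.
BMF promoter: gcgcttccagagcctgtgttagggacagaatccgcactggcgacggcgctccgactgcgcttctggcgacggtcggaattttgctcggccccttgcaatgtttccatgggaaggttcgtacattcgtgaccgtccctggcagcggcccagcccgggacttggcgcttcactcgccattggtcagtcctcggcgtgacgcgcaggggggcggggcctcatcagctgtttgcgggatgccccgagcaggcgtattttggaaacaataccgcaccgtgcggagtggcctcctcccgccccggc

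Among the 19130 protein-coding genes that share no region with *BMF*, *CBX1*, a heterochromatin protein of the HP1 family, had the pattern most like it over the 4 lines (Euclidean distance 0.603 in log2 of summed signal + 1). Its summed signal was 39090 for MB002, 40395 for D425, 11559 for HD-MB03 and 6546 for UW228, and none of its regions was a SE. *RNF26*, *C1QTNF5* and *MFRP* followed at a distance of 0.779 and *MCAM*, a cell adhesion molecule, at 0.799. These 4 genes are neighbours on chromosome 11 and share the D425 SE of rank 342, so they count as a single likeness.

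Across the family, 6 of the 10 genes had a SE in at least 1 line, against 12.1% of all genes, and there were 11 pairs of gene and line with a SE. MB002 had 3 (*BMF*, *BCL2L1* and *MCL1*; background 3.18% of genes), D425 2 (*BMF* and *BCL2L1*; 4.18%), HD-MB03 2 (*MCL1* and *BBC3*; 3.03%) and UW228 4 (*BCL2L1*, *MCL1*, *PMAIP1* and *BAK1*; 5.24%). By role, 3 of the 4 BH3-only genes, 2 of the 4 anti-apoptotic genes and 1 of the 2 effectors had a SE in some line. *BCL2*, *BCL2L2*, *BCL2L11* and *BAX* had none. No gene of the family had a SE in all 4 lines, and *BCL2L1* and *MCL1* had one in 3 lines, which 0.758% of all genes reach in at least 3. *BBC3*, *PMAIP1* and *BAK1* had one in exactly 1 line (9.41% of all genes). These background shares cover genes of all kinds, silent ones included, and the family was not drawn at random, so they are a scale for the counts and not a test. The counts of the family, of MB002, of D425 and of the BH3-only genes include *BMF*, which the study had picked partly from these lines.

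**Figure D2:**
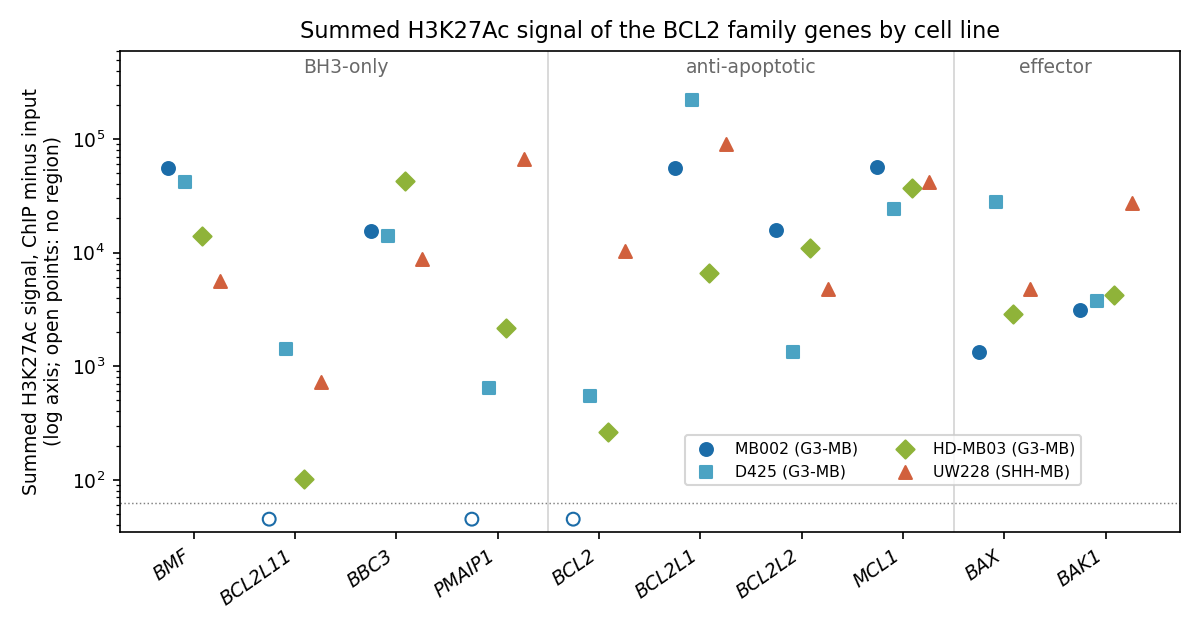
Summed H3K27Ac signal (ChIP minus input, log axis) over the regions of each gene, with 1 point per line (1 library each) and open points below the dotted line for genes without a region. *BMF* and *BBC3* have UW228 lowest, and *BCL2*, *PMAIP1* and *BAK1* have UW228 highest.

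Regions of any kind were found for 7 of the 10 genes in MB002 and for all 10 in each of the other lines (background 67.4% for MB002, 69.0% for D425, 54.2% for HD-MB03 and 59.0% for UW228). The 3 genes without a region in MB002 were *BCL2*, *BCL2L11* and *PMAIP1*. The median summed signal of the 10 genes was 9396 for MB002, 8868 for D425, 5436 for HD-MB03 and 9558 for UW228. All genes with a region had medians of 3477, 3362, 3143 and 4511.

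*BBC3* (PUMA), a BH3-only protein best known as a target of p53, had its SE in HD-MB03 alone. The summed signal was 15661 for MB002, 13948 for D425, 42979 for HD-MB03 and 8779 for UW228, so that HD-MB03 was 2.74-fold above the next line and UW228 was lowest. The HD-MB03 SE ranked 250. It was a single peak of 6.81 kb, from 0.797 to 7.61 kb downstream of the start, inside the gene body, with a signal of 25736 and an input density of 0.655. At 3.78 signal units per base pair it was denser than any *BMF* region. It stood 1.12-fold above the weakest SE of the line and lost the call when the input was not subtracted. The closest start site to its middle was that of the microRNA gene *MIR3191*, at 1.64 kb and closer than that of *BBC3*, and *MIR3190*, *CCDC9* and *INAFM1* were in reach as well.

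The other *BBC3* regions of HD-MB03 numbered 8, and the strongest, from -43.1 to -34.3 kb relative to the start, had rank 843. MB002 (rank 1329) also had its best region there, D425 (rank 1193) had it upstream from -27.1 kb on, and UW228 (rank 5616) had it 42.4 kb downstream. None of these 3 lines had a region inside *BBC3*. In D425 and UW228 a SE lay farther off, 95.8 and 72.9 kb from the start (ranks 60 and 660), outside the 50 kb of the rule. The order of the lines for *BBC3* therefore turned with the window. At 100 kb D425 was highest with 80235 against 43165 for HD-MB03, and MB002 was lowest with 15661. At 25 kb MB002 was lowest with 1272 against 3991 for UW228. With the regions at the start site left out, HD-MB03 had 17243 against 15661 for MB002.

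The HD-MB03 SE at *BBC3* held 3 E-boxes, or 4.41 per 10 kb, against a median of 1.46 over the SEs of the line, and 96.4% of these SEs had a lower density. With 3 matches in a short region this density is coarse. The 3 are shown on the strand of *BBC3* (minus strand of chromosome 19), with the motif in capitals.
E-box at chr19:47231556-47231585, 1.29 kb downstream of the BBC3 start: gggctctgcctgCACGTGactttgtggacc
E-box at chr19:47230405-47230434, 2.44 kb downstream: gcggggcgggcgCACGTGgcggcggtgggg
E-box at chr19:47229550-47229579, 3.30 kb downstream: gtttatgtcagtCACGTGagaccagtgttt

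The *BBC3* promoter in RefSeq, at chr19:47232618-47232917 on the minus strand, belongs to a start slightly downstream of the outermost one used above. It held 1 more E-box, at -232 bases from the start, and 1 AP-1 element, at -113 bases. No region of any line lay over it. It is shown because, of the member promoters searched, it alone held an AP-1 element. Both motifs are in capitals.
BBC3 promoter: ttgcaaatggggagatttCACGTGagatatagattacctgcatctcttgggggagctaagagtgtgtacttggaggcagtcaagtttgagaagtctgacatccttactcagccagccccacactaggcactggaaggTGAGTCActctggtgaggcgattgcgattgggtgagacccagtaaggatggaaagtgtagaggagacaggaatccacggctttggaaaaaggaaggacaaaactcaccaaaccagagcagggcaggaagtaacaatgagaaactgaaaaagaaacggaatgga

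*PMAIP1* (NOXA), a small BH3-only protein that binds *MCL1*, showed the widest gap of the 10 genes between UW228 and the other lines. In UW228 a SE of 51.1 kb with 8 peaks, rank 105 and a signal of 66742 covered the whole gene and its start. D425 had 2 short regions (summed signal 648, best rank 14327), HD-MB03 also 2 (2181, rank 6625), and MB002 had none. UW228 was thus 103-fold above D425 and 30.6-fold above HD-MB03. Per base pair the gap was smaller, since the UW228 signal of 1.31 stood against 0.672 in D425 and 0.212 in HD-MB03. The input density of the SE was 0.919. *PMAIP1* was the closest gene and the only gene in reach of this SE.

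The *PMAIP1* promoter, at chr18:59899746-59900045 on the plus strand, lay under the UW228 SE and under no region of the G3-MB lines. It had a GC content of 71.3% with 42 CpG dinucleotides and held none of the 3 motifs.
PMAIP1 promoter: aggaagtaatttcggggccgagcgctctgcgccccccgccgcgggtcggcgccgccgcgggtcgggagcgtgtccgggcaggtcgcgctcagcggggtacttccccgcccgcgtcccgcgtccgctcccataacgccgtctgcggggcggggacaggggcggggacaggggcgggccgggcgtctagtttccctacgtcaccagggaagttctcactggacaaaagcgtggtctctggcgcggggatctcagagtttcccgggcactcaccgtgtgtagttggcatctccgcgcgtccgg

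*BCL2L11* (BIM), which binds every anti-apoptotic protein of the family, had little signal in any line within 50 kb of its start. No region was found in MB002. The summed signal was 1410 in D425 (2 regions, best rank 9755), 102 in HD-MB03 (1 region, rank 14715) and 732 in UW228 (1 region, rank 14144). The D425 region, 0.801 kb long, lay 1.78 kb downstream of the start, and the UW228 region ended at -48.5 kb, close to the limit of the window. None of these regions overlapped between lines. With a window of 100 kb the summed signal of *BCL2L11* in D425 was 13531 and its best rank 2862, and 1 of the added regions, 53.7 kb from the start, had a signal of 6780.

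**Figure D3:**
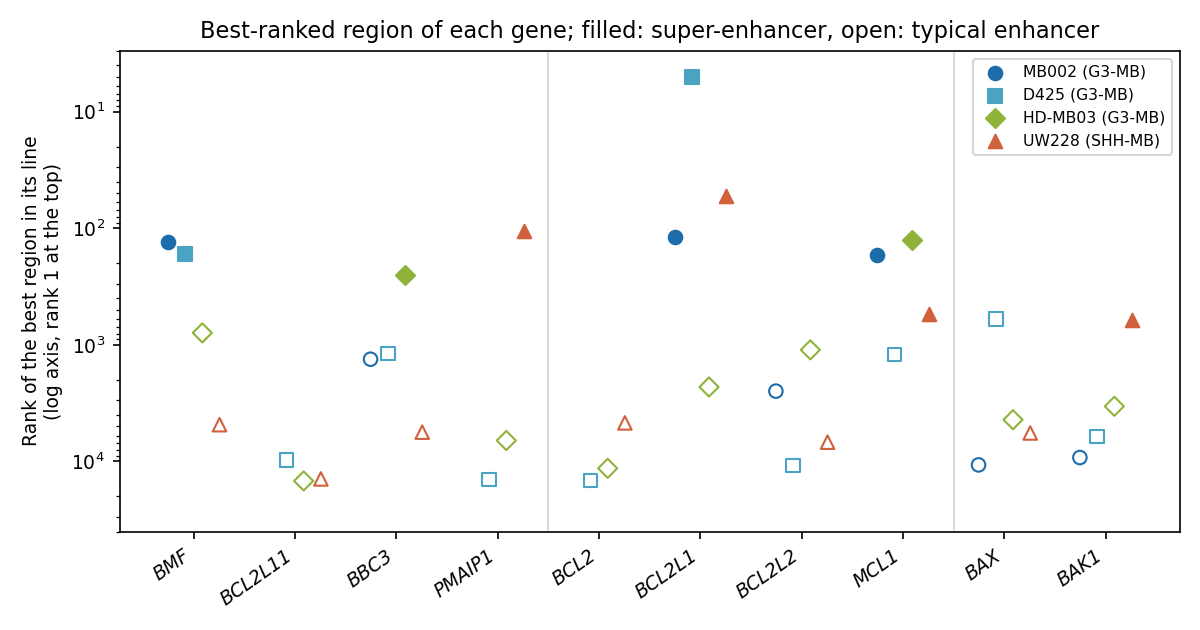
Rank of the best region of each gene in each line (log axis, rank 1 at the top, 1 library per line), with SEs filled and TEs open. The filled points run from rank 5 (*BCL2L1* in D425) to rank 613 (*BAK1* in UW228), and *BCL2*, *BCL2L2*, *BCL2L11* and *BAX* have open points only.

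Of the anti-apoptotic genes, *BCL2L1* had the best ranks in MB002, D425 and UW228. It encodes BCL-XL, a guardian of neurons and of many tumors. Its summed signal was 55588 for MB002, 221817 for D425, 6605 for HD-MB03 and 90123 for UW228. D425 was 2.46-fold above UW228 and 33.6-fold above HD-MB03, and the G3-MB lines lay on both sides of UW228. Per base pair the *BCL2L1* signal was 0.882 for MB002, 3.02 for D425, 0.297 for HD-MB03 and 1.20 for UW228. The D425 SE was rank 5 of the line, with 18 peaks over 63.5 kb and 3.39 signal units per base pair. It covered the gene from end to end, as did the SEs of MB002 (62.8 kb, rank 119) and UW228 (69.7 kb, rank 53). In HD-MB03 the start of the gene was free of regions, and the best region, 19.5 kb in the middle of the gene, ranked 2301.

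The input density of the *BCL2L1* SE was 1.67 in D425, 1.33 in UW228 and 1.08 in MB002, and the median input density of the regions within 500 kb was 1.20 in D425. The rank of the region in D425 was 7 after division of the signal by the input of the region and 4 after division by the input within 500 kb, against 5 as deposited. In the same order it was 110 and 102 for UW228, against 53, and 104 and 34 for MB002, against 119. With the input within 500 kb the summed signal was 74540 for MB002 and 65833 for UW228, so that the order of these lines turned. The antisense gene *BCL2L1-AS1* had the start site closest to the middle of each *BCL2L1* SE, at 17.2 to 21.6 kb, and *TPX2*, a spindle protein, and *COX4I2* were in reach as well.

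The *BCL2L1* promoter lay under the SE in MB002, D425 and UW228, at chr20:31723914-31724213 on the minus strand. It is shown because, of the member promoters searched, those of *BCL2L1* were under a SE in the most lines. It held none of the 3 motifs. E-boxes were also sparse over the SE, at 0.319 per 10 kb for MB002, 0.315 for D425 and 0.287 for UW228, where 4.96%, 6.26% and 9.83% of the SEs of the line had a lower density.
BCL2L1 promoter: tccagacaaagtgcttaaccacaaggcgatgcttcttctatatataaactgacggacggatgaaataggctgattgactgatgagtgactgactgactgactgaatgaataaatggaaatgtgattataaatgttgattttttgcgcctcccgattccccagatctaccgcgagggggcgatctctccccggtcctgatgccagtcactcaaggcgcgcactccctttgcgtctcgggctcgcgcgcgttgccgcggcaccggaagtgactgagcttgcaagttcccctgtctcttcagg

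*MCL1* encodes a short-lived guardian that cells must keep making. Its summed signal was 56780 for MB002, 24106 for D425, 37165 for HD-MB03 and 42086 for UW228, a range of 2.36-fold. Per base pair the *MCL1* signal was 2.19 for MB002, 0.492 for D425, 1.65 for HD-MB03 and 1.18 for UW228. With the regions at the start site left out, its summed signal ran from 857 in HD-MB03 to 12320 in UW228. The best region was a SE in MB002 (rank 171), HD-MB03 (rank 125) and UW228 (rank 545) and a TE in D425 (rank 1208). It spanned 21.0 kb, 20.5 kb, 19.0 kb and 16.6 kb in MB002, HD-MB03, UW228 and D425, and a segment of 16.6 kb was common to all lines. The MB002 and HD-MB03 SEs held the *MCL1* start, the UW228 SE began 0.476 kb after it, and the D425 region 2.24 kb after it.

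The input density of the *MCL1* SE was above that of the median region, at 1.57 in MB002, 1.89 in HD-MB03 and 1.27 in UW228, and it was 1.29 in the D425 region. When the signal was divided by the input of the region, the ranks were 332 for MB002, 466 for HD-MB03 and 904 for UW228, and the HD-MB03 call was lost. The UW228 call was lost when the 500 top-ranked regions were taken as SEs. The neighbourhood of *MCL1* on chromosome 1 is dense in genes. The closest start site to each SE was that of *ADAMTSL4-AS1*, 4.21 to 4.90 kb from its middle, against 9.27 to 9.96 kb for *MCL1*, and *ADAMTSL4* and *FALEC* were in reach as well, so a SE of *MCL1* and a SE of its neighbours cannot be told apart by position.

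*BCL2* and *BCL2L2* had no SE. For *BCL2*, the founding member of the family, the summed signal was 10338 in UW228 over 4 regions (best rank 4677), 549 in D425 (rank 14569) and 264 in HD-MB03 (rank 11477), and no region was found in MB002. UW228 was 18.8-fold above D425 and 39.2-fold above HD-MB03. The regions covered 8.75 kb in UW228 against 1.14 and 0.513 kb, and per base pair the *BCL2* signal was 1.18 for UW228, 0.483 for D425 and 0.514 for HD-MB03. The strongest UW228 region lay 80.7 to 84.1 kb downstream of the start, inside the long *BCL2* gene, where D425 also had its only region. *BCL2L2* reached 15870 in MB002 over 7 regions (best rank 2497), 1321 in D425 (rank 10848), 10909 in HD-MB03 (rank 1105) and 4834 in UW228 (rank 6841). Per base pair, the *BCL2L2* signal was 0.974 for MB002, 0.838 for D425, 1.21 for HD-MB03 and 1.28 for UW228, so that the order of the lines changed with the scale. None of the *BCL2L2* regions overlapped the gene.

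**Figure D4:**
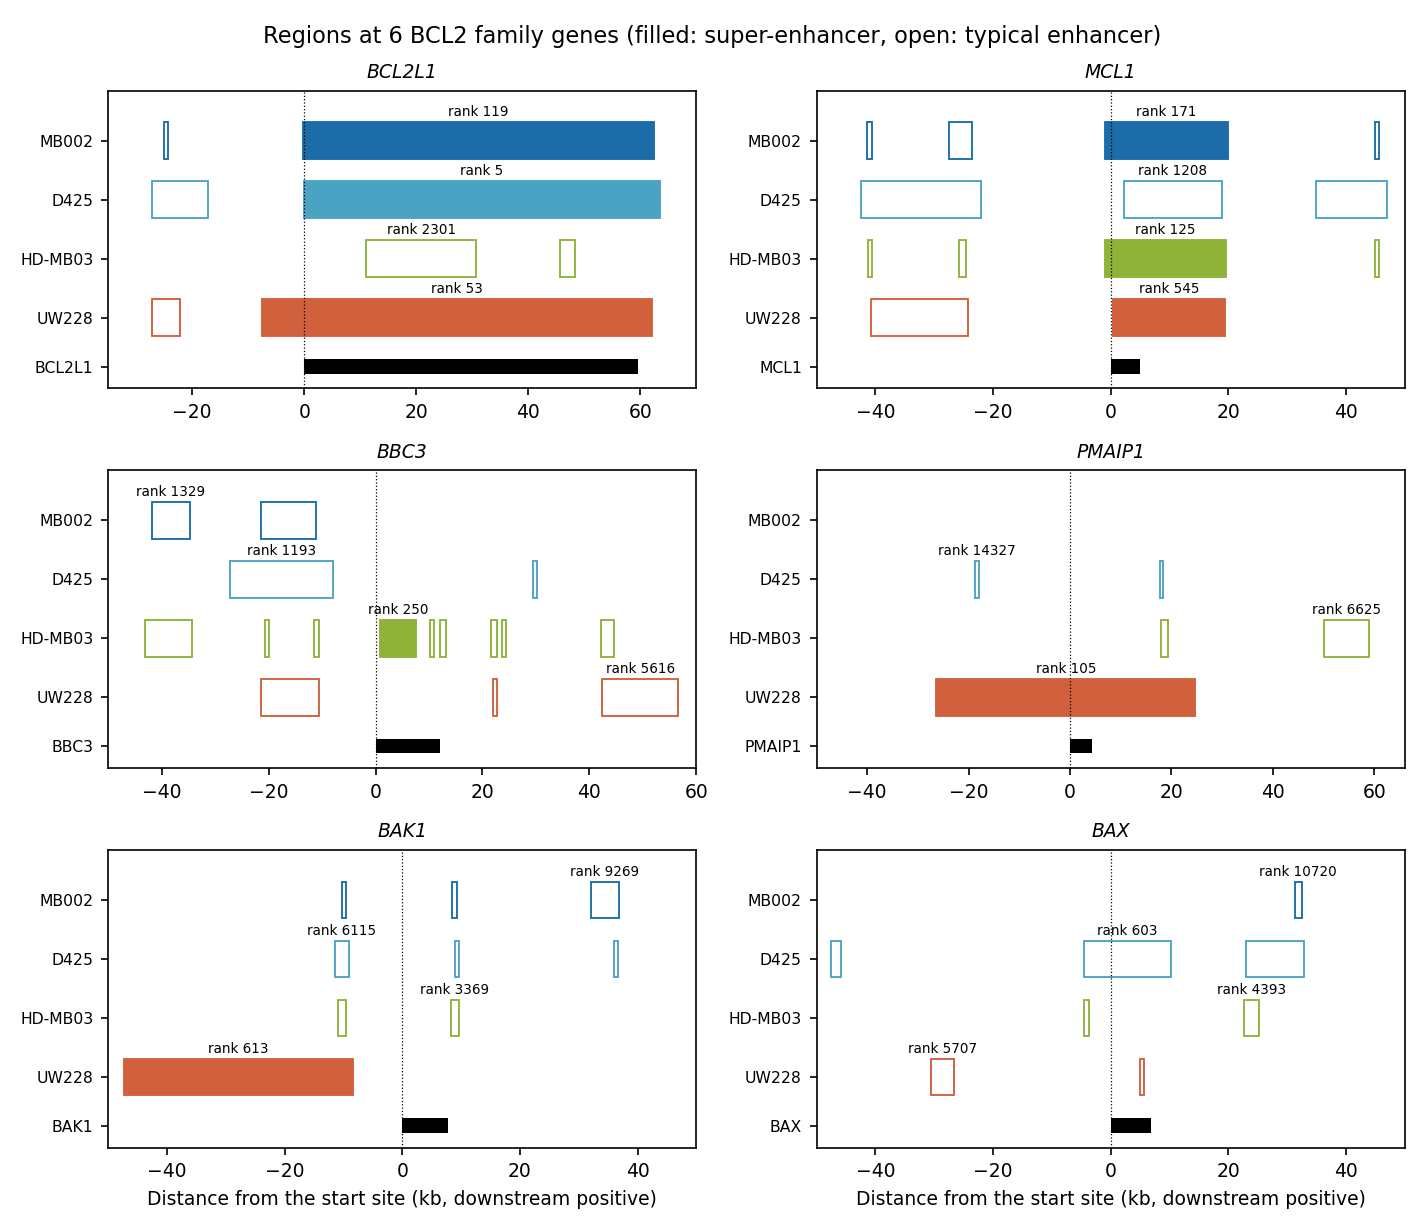
Regions at *BCL2L1*, *MCL1*, *BBC3*, *PMAIP1*, *BAK1* and *BAX* in the 4 lines by distance from the start site in kb (downstream positive), with the gene body in black, SEs filled and TEs open. The rank of the best region is printed above it, and very short regions are drawn at a minimum width. SEs cover *BCL2L1* in 3 lines and *PMAIP1* in UW228, and the *BAK1* SE of UW228 lies upstream of the gene.

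The effectors differed from each other. *BAX* had its strongest region in D425, a TE of 14.9 kb with rank 603 that covered the gene and its promoter, with a signal of 21662. Its summed signal was 1332 for MB002, 27899 for D425, 2880 for HD-MB03 and 4835 for UW228, so that D425 was 5.77-fold above the next line. Per base pair of region D425 did not lead, with 1.06 against 1.12 for MB002, 0.857 for HD-MB03 and 1.08 for UW228. That scale counts the gaps between peaks. Peaks filled 43.4% of the main D425 region and 100% of the best region of each other line. The D425 region stood at 0.825 of the weakest SE of the line, and no SE was called. It became a SE with rank 649 when the signal was divided by the input of the region and with rank 596 for the input within 500 kb, as the recomputed cutoff then called 989 and 964 SEs in D425 in place of 407. With a window of 100 kb, the summed signal of *BAX* was 30608 for D425 and 13374 for UW228. The other lines had no region over the *BAX* start.

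The *BAX* promoter, at chr19:48954625-48954924 on the plus strand, held 4 E-boxes, at -138, -93, -45 and -14 bases from the start. Of the 35116 promoters in the table, 7.26% held at least 1 E-box, and 5 (0.0142%) held at least 4. It is shown for this reason.
BAX promoter: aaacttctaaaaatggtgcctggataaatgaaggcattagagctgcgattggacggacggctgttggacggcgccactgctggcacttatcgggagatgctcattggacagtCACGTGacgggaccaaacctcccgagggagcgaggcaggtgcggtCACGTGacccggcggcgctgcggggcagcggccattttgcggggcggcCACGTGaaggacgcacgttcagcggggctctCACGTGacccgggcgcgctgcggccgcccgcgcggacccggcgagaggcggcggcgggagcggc

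*BAK1* had a SE only in UW228, of 39.0 kb with 10 peaks, rank 613 and a signal of 27627. It ran from -47.4 to -8.39 kb relative to the start and did not touch the gene, and the closest start site to its middle was that of *ITPR3*, a calcium release channel, at 13.2 kb against 27.9 kb for *BAK1*. The call was lost with the gene body only, where *BAK1* had no region in any line, and when the 500 top-ranked regions were taken as SEs. The G3-MB lines had short regions only, with a summed signal of 3130 for MB002, 3788 for D425 and 4268 for HD-MB03, so that UW228 was 8.83-fold, 7.29-fold and 6.47-fold higher. Per base pair UW228 was not the highest, with 0.709 against 0.492 for MB002, 1.18 for D425 and 1.57 for HD-MB03. The gaps between peaks count in this scale. Peaks filled 47.4% of the UW228 region and 33.1%, 84.1% and 100% of the best regions of MB002, D425 and HD-MB03. The *BAK1* region of D425 with an input density of 2.92 was the only 1 of the 89 at or above 2.

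Set against UW228, the summed signal of 2 genes was higher in all 3 G3-MB lines, *BMF* and *BBC3* (23.4% of the 23629 genes with a region in some line). That of 3 genes was lower in all 3, *BCL2*, *PMAIP1* and *BAK1* (29.9% of these genes), and the other 5 were mixed. By over 2-fold in each of the 3 lines, 1 gene was higher (*BMF*; 19.6% of genes) and 3 were lower (*BCL2*, *PMAIP1* and *BAK1*; 21.8%). Of the BH3-only genes, *BMF* and *BBC3* were on the G3-MB side, *PMAIP1* was on the UW228 side and *BCL2L11* was mixed. The other genes on the UW228 side, *BCL2* and *BAK1*, came from the other roles. For *BBC3* the mean log2 difference was 1.26 with an exact two-sided permutation p = 0.5, and for *BAK1* it was -2.90 with an exact p = 0.25. Over all 10 genes the exact p was 0.25 for 2, 0.5 for 3, 0.75 for 3 and 1 for 2, and none could reach the threshold of 0.05 with 4 lines. The shares of members on either side were near the background. *BBC3* was no longer higher in all 3 lines with a window of 25 kb or 100 kb or with the gene body only. With the gene body only, 2 genes were lower in all 3 lines, *BCL2* and *PMAIP1*. Per base pair 4 were lower, *BCL2*, *BCL2L2*, *BCL2L11* and *PMAIP1*, with a line without a region taken as 0, and *BAK1* was not among them. With the regions at the start site left out, 4 were lower, *BCL2*, *MCL1*, *BCL2L11* and *BAK1*, and *PMAIP1* had no region in UW228 against 648 in D425 and 2181 in HD-MB03. Without D425 the number lower in the remaining G3-MB lines was 6 instead of 3, as *BCL2L1*, *BCL2L11* and *BAX* joined. The number higher was then 3 instead of 2, as *BCL2L2* joined.

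**Figure D5:**
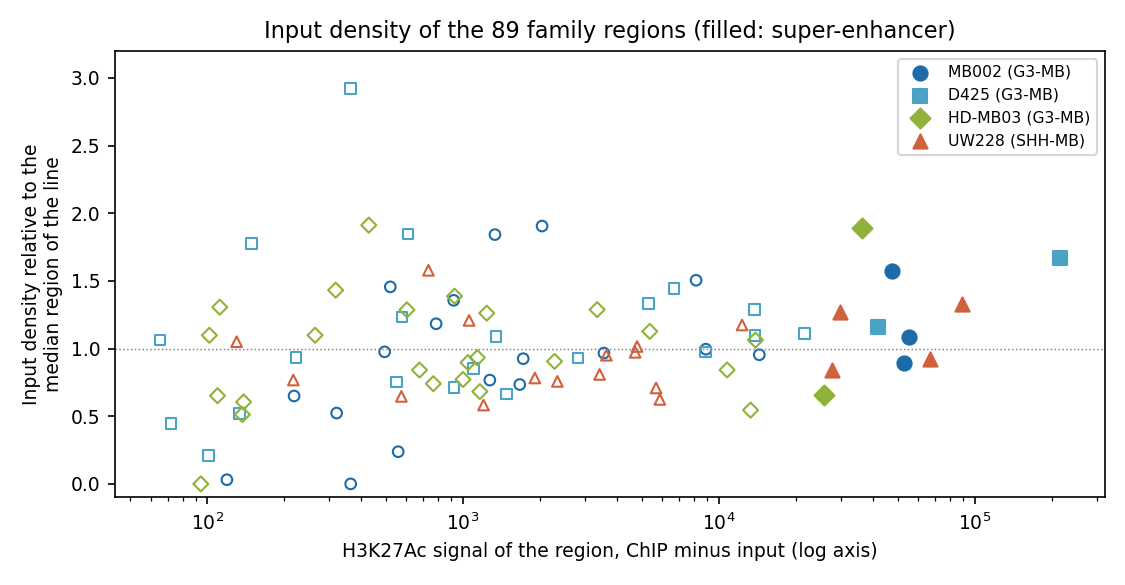
Input density of the 89 regions, per base pair and relative to the median region of the line (vertical axis), against their H3K27Ac signal (log axis), with SEs filled and TEs open. The SEs lie between 0.655 and 1.89, and the point at 2.92 is a weak *BAK1* region of D425.

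The 11 SE regions of the family had input densities from 0.655 (*BBC3* in HD-MB03) to 1.89 (*MCL1* in HD-MB03). Over all member regions the densities ran from 0 to 1.91 for MB002, 0.210 to 2.92 for D425, 0 to 1.91 for HD-MB03 and 0.582 to 1.58 for UW228. A start site lay inside 6 of the 11 SEs, those of *BCL2L1* in 3 lines, *MCL1* in 2 and *PMAIP1* in UW228. H3K27Ac marks promoters as well as enhancers. When all regions within 2.5 kb of the start site were left out, 3 SE calls were kept, those of *BMF* in MB002 and D425 and of *BAK1* in UW228.

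Among 43 other genes of the apoptosis pathway, 4 had a SE in some line, beside 12.1% of all genes. *BCL2L12*, an atypical family member, had one in HD-MB03 (rank 240). *BIRC5*, which encodes survivin, an inhibitor of apoptosis with a role in mitosis, had one in MB002 (rank 195) and no region in UW228. *FOXO3*, a transcription factor with *BCL2L11* among its known targets, had one in MB002 (rank 212) and HD-MB03 (rank 254). *USP9X*, a deubiquitinase known to stabilise *MCL1*, had one in UW228 (rank 561). The summed signal was higher in all 3 G3-MB lines than in UW228 for 9 of the 43 genes, lower in all 3 for 18 and mixed for 16, beside the background of 23.4% and 29.9% of genes. By list, the genes higher and lower in all 3 numbered 4 and 3 of 11 for other *BCL2* family genes, 1 and 5 of 9 for caspases and the apoptosome, 2 and 3 of 7 for inhibitors of apoptosis and their antagonists, 0 and 4 of 6 for the death receptor arm, and 2 and 3 of 10 for regulators and partners of the family.

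Of the 10 member promoters in the RefSeq table, which cover 8 of the genes (*BMF* and *BCL2L1* have 2 each), none held the OTX2/CRX core (6.36% of all promoters do), 2 held the E-box (7.26%) and 1 the AP-1 element (7.71%). *BCL2L2* and *MCL1* had no promoter there and were not searched. A region lay over the promoter of *BCL2L1* in MB002, D425 and UW228, of *PMAIP1* in UW228 and of *BAX* in D425, and over no other member promoter in the table. Given the exclusion of promoters in the methods, a missing region there is not a measure of H3K27Ac.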

How the data were processed

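The authors made H3K27Ac ChIP-seq and input libraries of 4 lines (1 each, 8 in all). Per the labels and methods, reads were aligned to GRCh38 with Bowtie2 2.3.0, handled with SAMtools 1.9, and peaks were called with MACS2 2.2.6 and stitched with ROSE. The deposited signal of a region is its read density, scaled to the mapped reads, times its length, for ChIP and input separately. The deposited score is its rank by ChIP minus input (1 is the highest), beside its SE call. The methods exclude promoters, but some deposited regions still overlap start sites. Depth is not given in the sources used here, so no counting error could be given.

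Input was subtracted and negative values set to 0. Gene spans were taken from RefSeq, for the 27445 of 29985 genes with curated transcripts whose strand was found in GENCODE 44, and distances were taken on the strand of the gene. Regions within 50 kb of a start site or over a gene body were assigned with Python 3.11.15, numpy 2.4.6 and pandas 2.3.3, and figures were drawn with matplotlib 3.10.9. The overlap, the SE cutoff and the exact test were checked on simulated data. Lines were compared on log2(summed signal + 1) with the exact permutation test over 4 splits. Every member was named, as were pathway genes with a SE, the gene closest to each member SE and the 5 genes most like *BMF*. The members and lists were chosen with earlier results of these data known. Alternatives covered the window, regions at the start site, input, cutoff, scaling, annotation and leaving out a line. Protein sequences were not used here. Motifs were searched as exact letters.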

Additional observations from a re-analysis of the deposited data

How the results depend on the processing

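Each line has 1 library, so leaving out a line removes a condition and not a replicate. No paired analysis was possible because no line has more than 1 library of a kind. Of the 11 SE calls of the family, all 11 were kept with a window of 25 kb or 100 kb, with the recomputed cutoff and with GENCODE gene spans. At 100 kb BBC3 gained a SE in D425 and UW228. The other alternatives moved some counts of genes with a SE. With the regions within 2.5 kb of the start site left out, the count was 0 for HD-MB03 and 1 for each of MB002, D425 and UW228. In HD-MB03 it was 1 without input subtraction (BBC3 lost) and 1 with the signal divided by the input of the region (MCL1 lost). In UW228 it was 2 when the 500 top-ranked regions were taken as SEs (MCL1 and BAK1 lost) and 3 with the gene body only (BAK1 lost). The number of genes higher in all 3 G3-MB lines fell to 1, BMF alone, with the window of 25 kb, with that of 100 kb and with the gene body only. It rose to 3 with the signal divided by the median of the line (MCL1 joined) and without D425 (BCL2L2 joined). The number lower in all was 6 without D425 and 4 without MB002. The mean log2 difference of BMF stayed positive in the 15 alternatives on summed signal, from 1.93 (signal divided by the input of the region) to 3.54 (signal divided by the median of the line). Per base pair it was 1.69 with no pseudocount, an alternative added after seeing the data, and 0.62 with 1 added, where the values lie near 1. Division by the input raised the number of SEs that the recomputed cutoff called, in D425 from 407 to 989 and 964 and in HD-MB03 from 302 to 379 and 1045. BAX in D425 became a SE with both, and BMF in HD-MB03 with the input within 500 kb. It was 2.09 without MB002, 2.29 without D425 and 3.08 without HD-MB03. The causes were not tested. What limits these values is the single library per line and the unknown depth.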
